A study of Macaca fascicularis with 34 samples.

Results

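The subunits of the oxidative phosphorylation complexes are described here across 34 single cells of cynomolgus monkeys (Macaca fascicularis). The genes were chosen by name alone: every row of the deposited table whose paired human symbol was NDUFA, NDUFB, NDUFC, NDUFS or NDUFV with a number, SDHA to SDHD, a UQCR symbol, COX4 to COX8, or ATP5 with a letter. This gave 76 of 28551 genes. Of these, 34 belong by prefix to complex I, 3 to complex II, 7 to complex III, 16 to complex IV and 16 to complex V. The older human symbols of the table are used throughout, so that ATP5A1 stands for the gene now called ATP5F1A.

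The study profiled cells of embryos and of male gonads by SC3-seq, which sequences the 3' ends of transcripts after amplification of the cDNA of 1 cell. The embryo cells numbered 3 at embryonic day (E) 13, 1 at E14, 11 at E16, 2 at E17 and 8 at E20. The male gonad cells numbered 6 at E36, 1 at E47 and 2 at E55. All came from the subspecies fascicularis. The labels give no treatment, no cell type and no animal, so it is not known which cells shared an embryo or a gonad. Each stage was therefore taken as 1 sample, and no difference was tested. Means and standard deviations (SD) describe the spread between cells. Organ and stage cannot be told apart, since every gonad cell is later than every embryo cell. The codes in the labels also follow the stages. E13 and E14 each carry a code of their own, and so do E20 cells 1 to 7 as a group. E17 shares the code of the gonad, and 1 E20 cell (cell 8) shares the code of E16. For E13, E14 and E20 cells 1 to 7, code and stage can therefore not be told apart. The E36 cells also differ in code from the E16 cells. Within 1 code, the gonad can be compared only with the 2 E17 cells, and E16 only with E20 cell 8.

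Oxidative phosphorylation takes place in the inner mitochondrial membrane. Complex I (NADH dehydrogenase) and complex II (succinate dehydrogenase) pass electrons to ubiquinone, complex III hands them to cytochrome c, and complex IV (cytochrome c oxidase) reduces oxygen with them. Complexes I, III and IV pump protons as they work, and complex V (ATP synthase) uses the returning protons to make ATP. Most subunits are encoded in the nucleus, while a few core subunits come from the mitochondrial genome. The table lists 0 mitochondrial genes, so only nuclear subunits were measured.

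The symbols were set beside the RefSeq gene table of assembly T2T-MFA8v1.1, in which 75 of the 76 gene IDs were found. Of these, 60 have the same symbol there and 13 have the later form of an ATP5 symbol. ATP5S is named DMAC2L there, a factor that is no subunit of ATP synthase, and was kept because the rule takes it. The row paired with ATP5G2 is a miscellaneous RNA in RefSeq, so its place as the ATP5G2 transcript is uncertain. The COX7C row is typed as non-coding RNA in the deposited table, whereas RefSeq names it COX7C and protein-coding. NDUFA4 counts here with complex I, although it was later placed in complex IV. Rows without a human symbol that RefSeq names SDHA (mean 4.30 RPM) and NDUFA3 (mean 56.0 RPM) fall outside the rule. RPM are a cell's reads scaled to the same total in every cell. How reads of near-identical copies, such as processed pseudogenes, were assigned is not given in the sources used here, so levels of single subunits may hold reads of such copies. By the deposited table the members lie on 20 chromosomes, with 10 on chromosome 19, 7 each on chromosomes 3 and 14, and 6 on chromosome 1. NDUFA1, NDUFB11 and COX7B are the 3 members on the X chromosome.

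Reads recovered from the values numbered 472189 to 3556591 per cell, and the 3 E13 cells were the shallowest of the 34 (472189 to 775709 reads). Clustering on 1000 other variable genes gave 26 germ-cell-like cells and 8 mesoderm-like cells, the latter being E16 cell 8 and E20 cells 1 to 7. The germ-cell-like cluster had 14 of 14 germ cell markers at a mean of at least 15 RPM, and the mesoderm-like cluster 10 of 10 mesoderm markers. The mesoderm-like cluster also had 10 of the 14 germ cell markers at that mean, and the germ-cell-like cluster 3 of the 10 mesoderm markers. By median, 12 germ cell markers reached 15 RPM in the germ-cell-like cluster and 6 in the other. E16 cell 8 and E20 cell 5 each had 10 germ cell markers at 15 RPM, as did some germ-cell-like cells. The 10 mesoderm markers summed to 15193 RPM in E16 cell 8 and to between 58.2 and 267 RPM in the other E16 cells. E16 cell 8 also had all 8 endoderm markers, at 5641 RPM in sum. In E20 cells 1 to 7 the mesoderm markers summed to 1322 to 14937 RPM, against 75.2 RPM in E20 cell 8. The 14 germ cell markers summed to 9392 to 11752 RPM in the E13 cells, 1855 to 11745 RPM in the E16 cells, 652 to 6197 RPM in the E20 cells and 4133 to 5963 RPM in the E36 cells. Of the 9 gonad cells, 3 (E36 cells 1 and 5 and the E47 cell) had at least 3 gonadal somatic markers at 50 RPM. The summed level of these markers was 21546 RPM in the E47 cell, and 464 RPM at most in any embryo cell.

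Transcripts of the 76 genes together made up 1.65% ± 0.244 (SD, 34 cells) of a cell's RPM. The 3 E13 cells stood at 2.03, 2.15 and 1.89%, and the E14 cell at 1.69%. The 11 E16 cells ran from 1.18% in cell 7 to 1.97% in cell 5, with a median of 1.63%. The 2 E17 cells stood at 1.37 and 1.88%. At E20 the 8 cells ran from 1.32 to 1.66% around a median of 1.48%, and the 6 E36 cells from 1.41 to 1.75% around a median of 1.56%. The E47 cell had 2.06%, and the 2 E55 cells had 2.01 and 1.52%. All 3 E13 cells thus lay above every E20 and E36 cell, while E16 overlapped with each of these stages. With ribosomal protein genes left out of the total this separation from E36 ended, since E36 cell 2 (2.39%) then lay above E13 cell 3 (2.35%).

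**Figure D1:**
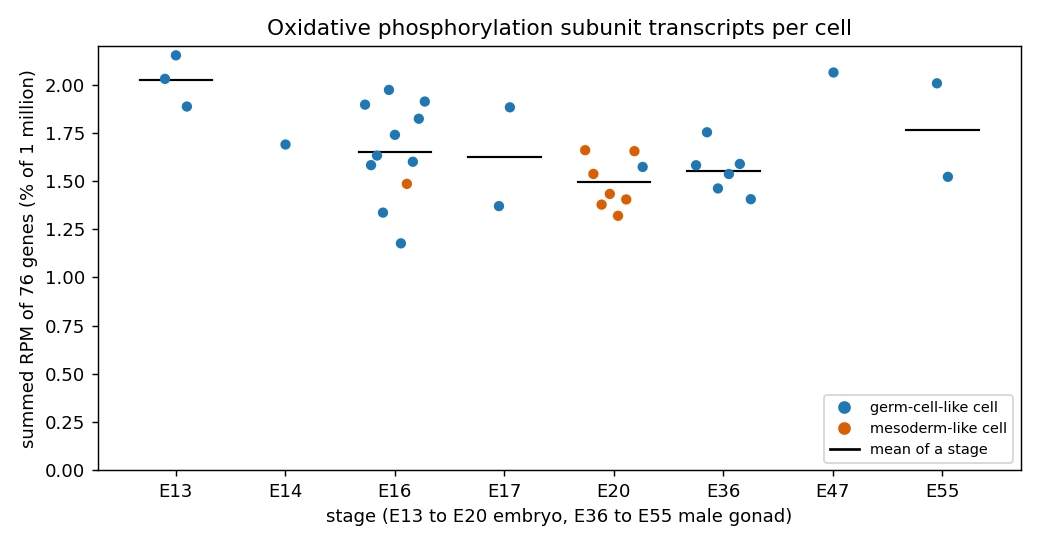
Summed RPM of the 76 subunit genes as a percent of a cell's RPM (y axis) for each cell, by stage (x axis). Each point is 1 cell, coloured by cluster, and bars are means of the stages with more than 1 cell. They run from 1.49% at E20 to 2.02% at E13, with 1.65% for E16. The single E47 cell, at 2.06%, has no bar.

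The stage means were 2.02% ± 0.133 for the 3 E13 cells, 1.65% ± 0.251 for the 11 E16 cells, 1.49% ± 0.129 for the 8 E20 cells and 1.55% ± 0.120 for the 6 E36 cells (SD). With the reads of a stage pooled, the subunits took 2.03% at E13 (exact Poisson 95% interval 2.01 to 2.05%, 38544 reads) and 1.65% at E16 (1.64 to 1.65%, 447576 reads). These intervals cover counting error only, since the cDNA was amplified without molecular identifiers, and the spread between cells is far wider. The embryo cells together averaged 1.65% ± 0.252 and the gonad cells 1.66% ± 0.235. The 8 mesoderm-like cells averaged 1.48% ± 0.125 and the 17 germ-cell-like embryo cells 1.72% ± 0.263, and their ranges overlapped.

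Complex V supplied the greatest part of these transcripts and complex II the least. Over 34 cells, complex V held 37.2% ± 3.77 of the module's RPM, complex I 33.7% ± 3.24, complex IV 20.6% ± 2.09, complex III 7.22% ± 1.36 and complex II 1.32% ± 0.540. RPM are not divided by transcript length, since only the 3' end of a transcript is read. These shares also reflect how many genes of each complex were measured. Complex V averaged 41.8% of the module in the E13 cells, 33.9% in the E16 cells, 38.9% in the E20 cells and 39.0% in the E36 cells. Complex I averaged 31.3, 36.7, 32.8 and 32.7% at these stages, in the same order. E16 thus had the lowest share of complex V and the highest share of complex I among these 4 stages.

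Detection was broad but not complete. In all 34 cells, 38 of the 76 genes reached 15 RPM: 13 of complex I, 1 of complex II, 5 of complex III, 9 of complex IV and 10 of complex V. In at least 31 cells, 59 genes reached that level. The number of members at 15 RPM ran from 57 in E17 cell 1, which also had the fewest genes at that level (5102), to 71 in E55 cell 1. The mean level was at least 100 RPM for 50 members and at least 500 RPM for 5, while 7 members averaged under 15 RPM. Of these 7, 6 belong to complex IV and 1 (ATP5D, the delta subunit of ATP synthase) to complex V.

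The subunits of complex I spanned 17.6 to 632 RPM in mean level. The highest was NDUFB4, an accessory subunit of the membrane arm. NDUFB4 stood at 563, 629 and 827 RPM in the E13 cells, 412 RPM at E14, 178 to 1294 RPM at E16 (median 578), 181 and 726 RPM at E17, and 280 to 928 RPM at E20 (median 602). In the gonad it stood at 414 to 1033 RPM at E36 (median 797), 798 RPM at E47, and 432 and 455 RPM at E55. The ranges of E13, E16, E20 and E36 overlapped for NDUFB4. The 7 core subunits that carry the flavin and the iron-sulfur clusters were lower, from 29.3 RPM for NDUFV1 and 29.7 RPM for NDUFS7 to 163 RPM for NDUFV2.

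Complex II had the lowest summed RPM and the lowest median of its members' means (64.3 RPM), although none of its members was as scarce as the lowest of complex IV. SDHB, its iron-sulfur subunit, averaged 116 RPM, and the membrane anchors SDHD and SDHC 64.3 and 33.1 RPM. SDHB stood at 78.4, 87.7 and 197 RPM at E13, 117 RPM at E14, 23.4 to 188 RPM at E16 (median 97.3), 56.9 to 147 RPM at E20 (median 102) and 28.9 to 177 RPM at E36 (median 115). The highest SDHB level was 423 RPM, in E17 cell 1, and the other E17 cell had 129 RPM. The E47 cell had 168 RPM and the E55 cells 87.1 and 118 RPM. SDHD ran from 3.73 RPM in E20 cell 7 to 144 RPM in E16 cell 8. Its stage medians were 36.03 RPM at E16, 70.1 RPM at E20 and 58.8 RPM at E36, and the E13 cells had 55.1, 79.9 and 33.8 RPM, so all these stages overlapped.

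In complex III the highest member was UQCRB, a small subunit next to the ubiquinone site, at a mean of 336 RPM. The core proteins UQCRC2 and UQCRC1 averaged 181 and 174 RPM, the Rieske iron-sulfur protein UQCRFS1 107 RPM, and UQCRH, the hinge protein, only 37.4 RPM. UQCRB levels were 328, 242 and 417 RPM at E13, 212 to 667 RPM at E16 (median 342), 131 to 432 RPM at E20 (median 281) and 95.9 to 355 RPM at E36 (median 185). It was lowest in E17 cell 1 (62.7 RPM) and highest in E55 cell 1 (1017 RPM). The other E55 cell had 273 RPM and the E47 cell 595 RPM.

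Complex IV comprised a group of abundant subunits and a group of scarce ones. Its highest member, COX7C, averaged 871 RPM, and 8 others, among them COX6A1, COX4I1, COX7B and COX8A, averaged 153 RPM (COX5B) to 434 RPM (COX6A1). COX7C stood at 555, 536 and 835 RPM at E13, 1281 RPM at E14, 416 to 1706 RPM at E16 (median 910.4), 387 to 908 RPM at E20 (median 504), 711 to 1174 RPM at E36 (median 1072), 1023 RPM at E47, and 1537 and 1348 RPM at E55. The lowest E16 cell for COX7C was cell 8, the mesoderm-like cell of that stage, and the highest E20 cell was cell 8, the germ-cell-like one. COX5A, a subunit that ordinary cytochrome c oxidase contains, averaged only 9.15 RPM (0 to 26.1 RPM) and reached 15 RPM in 7 cells.

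Complex V held the most abundant gene of the module. ATP5A1, the alpha subunit of the catalytic head, averaged 1641 RPM, ATP5G2 955 RPM and ATP5O, which links the head to the stalk, 605 RPM. ATP5B, which encodes the catalytic beta subunit that stands beside alpha in equal number, averaged 303 RPM. ATP5D, of the same head, averaged 14.4 RPM (0 to 61.9 RPM).

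ATP5A1 stood at 2825, 4016 and 2971 RPM in the E13 cells and at 1694 RPM at E14. The E16 cells spanned 872 to 1887 RPM (median 1471), and the E17 cells had 1009 and 2005 RPM. At E20 it ran from 926 to 1725 RPM (median 1369), at E36 from 1163 to 1803 RPM (median 1456), and the later gonad cells had 1777, 1869 and 1541 RPM. All 3 E13 cells lay above the other 31 cells, and the other stages overlapped. ATP5A1 alone made up 16.1% ± 2.39 of the module's RPM at E13 and 8.99% ± 1.71 at E16. The module was 0.372 percentage points higher at E13 than at E16, and ATP5A1 supplied 48.4% of this gap.

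Several subunits of complexes IV and V have isoforms from separate genes, 1 found in most tissues and 1 restricted to a few. In these cells the widespread form took nearly all of the RPM of each pair: 99.5% for COX4I1 over COX4I2, 100% for COX6A1 over COX6A2, 99.6% for COX6B1 over COX6B2, 99.4% for COX7B over COX7B2 and 95.9% for COX7A2 over COX7A1, on average over 34 cells. COX6A2, the heart and muscle form, had no read in any of the 34 cells, and over the pooled reads a count of 0 leaves room for 0.0468 RPM. COX4I2 reached 35.1 RPM in E16 cell 7 and 19.9 RPM in E20 cell 2, and had 0 reads in every gonad cell. COX7B2 was found mainly in 3 cells, at 29.0 RPM at E14, 31.2 RPM in E36 cell 4 and 16.4 RPM in E55 cell 1.

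COX8C was the exception among the scarce forms. It encodes an isoform of COX8 known from the testis, and the widespread COX8A held 90.4% of the pair's RPM. COX8C stood at 152, 336 and 56.9 RPM at E13, 19.0 RPM at E14, 0 to 88.8 RPM at E16 (median 7.37, with 5 cells at 0), and 0 and 0.357 RPM at E17. At E20 it had 0 reads except in cell 5 (11.8 RPM) and cell 8 (0.369 RPM). In the gonad the E36 cells had 84.3, 1.23, 78.3, 120.1, 0 and 48.2 RPM, the E47 cell 64.4 RPM, and the E55 cells 135 and 316 RPM. COX8C was therefore present at E13 and in 7 of 9 gonad cells at over 15 RPM, and near 0 at E17 and E20. Its share of the pair averaged 23.6% ± 18.8 over the E13 cells, 4.52% ± 5.45 over the E16 cells, 0.528% ± 1.44 over the E20 cells and 14.9% ± 13.1 over the E36 cells, and was 56.5% in E55 cell 2.

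The c ring of ATP synthase, through which the protons pass, is made from ATP5G1, ATP5G2 and ATP5G3, which encode the same mature protein behind different import signals. Over all cells they took 11.3% ± 5.95, 61.4% ± 8.08 and 27.3% ± 7.72 of their joint RPM. ATP5G1 took 23.6% ± 7.46 at E13 (15.96 to 30.8%) and 10.9% ± 2.96 at E16 (6.10 to 14.1%), without overlap between the cells. The E47 cell (21.0%), E20 cell 8 (18.4%) and E36 cell 1 (16.7%) lay within the E13 range. The ATP5G2 share was lowest in E16 cell 8 (36.8%), where ATP5G3 took 49.1%, and highest in E55 cell 2 (76.4%). As stated above, the ATP5G2 row is uncertain, so these shares are those of the 3 rows.

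**Figure D2:**
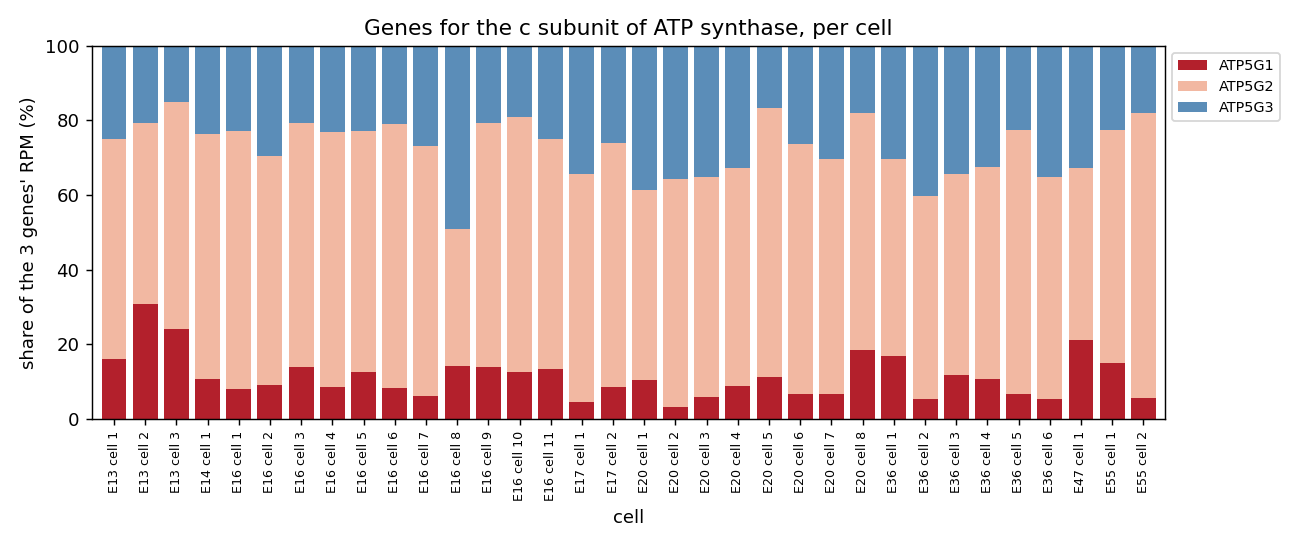
Share of the joint RPM of ATP5G1, ATP5G2 and ATP5G3 (y axis, %) in each of the 34 cells (x axis, ordered by stage). Stacked bars add to 100%, and ATP5G1 takes 15.96 to 30.8% in the E13 cells against 6.10 to 14.1% in the E16 cells.

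The 4 comparisons used the same measure: the difference of mean log2(RPM + 1) for each gene with at least 1 RPM on average in either group. A gene is called higher or lower where the means of RPM differ at least 2-fold. Of these, 3 share the E16 cells, so their values are not independent of each other.

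The gonad cells differed little from the embryo cells over the module as a whole. The median difference over 75 measured members was −0.088, beside −0.17 over all measured genes, and 33 members were above 0 and 42 below. Of all measured genes, 6413 were above 0 and 8832 below. At least 2-fold higher in the gonad were 3 members (COX8C, COX7B2 and ATP5S), beside 12.7% of all measured genes. At least 2-fold lower were 3 members (NDUFB10, COX6B2 and COX4I2), beside 26.3% of all genes. The medians by complex were −0.13 for I, 0.078 for II, −0.13 for III, −0.088 for IV and 0.0064 for V. Only that of complex I kept its sign whichever cell was left out (−0.19 to −0.05). Among genes of at least 50 RPM the module's median was −0.043 (61 genes), beside 0.010 for all genes, so the module was then the lower of the pair. At that level 1 member was higher and 1 lower, beside 5.95% and 10.5% of all genes. COX8C averaged 94.2 RPM ± 95.1 in the gonad and 32.2 RPM ± 72.9 in the embryo, a 2.92-fold ratio. This ratio was 2.06 without E55 cell 2, 4.82 without E13 cell 2 and 2.04 among germ-cell-like cells. COX6B2 and COX4I2 had 0 reads in the gonad and means of 1.61 and 2.83 RPM in the embryo. ATP5S averaged 27.9 and 12.7 RPM (2.21-fold), and the ratio was 1.65 without E36 cell 5 and 1.71 without E36 cell 3. COX7B2 averaged 5.29 and 1.21 RPM (4.37-fold), and the ratio was 1.70 without E36 cell 4 and 105 without the E14 cell.

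NDUFB10, an accessory subunit of the complex I membrane arm, was the only one of these 3 lower members with more than 15 RPM in a group. It averaged 38.1 RPM ± 45.2 in the gonad and 94.0 RPM ± 39.1 in the embryo, 2.47-fold lower. The E36 cells had 4.41, 55.4, 0, 132, 0.679 and 3.71 RPM, the E47 cell 33.6 RPM, and the E55 cells 29.7 and 83.3 RPM. The E16 cells ran from 39.7 to 163 RPM (median 131), the E20 cells from 49.4 to 144 RPM (median 73.3), the E13 cells stood at 36, 36.1 and 75.4 RPM, and the E14 and E17 cells at 84.0, 125 and 89.7 RPM. In the gonad 4 cells at E36, the E47 cell and 1 E55 cell thus lay below every embryo cell, whereas E36 cell 4 lay near the E16 median. The member of complex I with the highest difference was NDUFB1, at 244 RPM ± 164 in the gonad and 138 RPM ± 108 in the embryo, with 577 RPM in the E47 cell, and this ratio stayed under 2-fold.

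**Figure D3:**
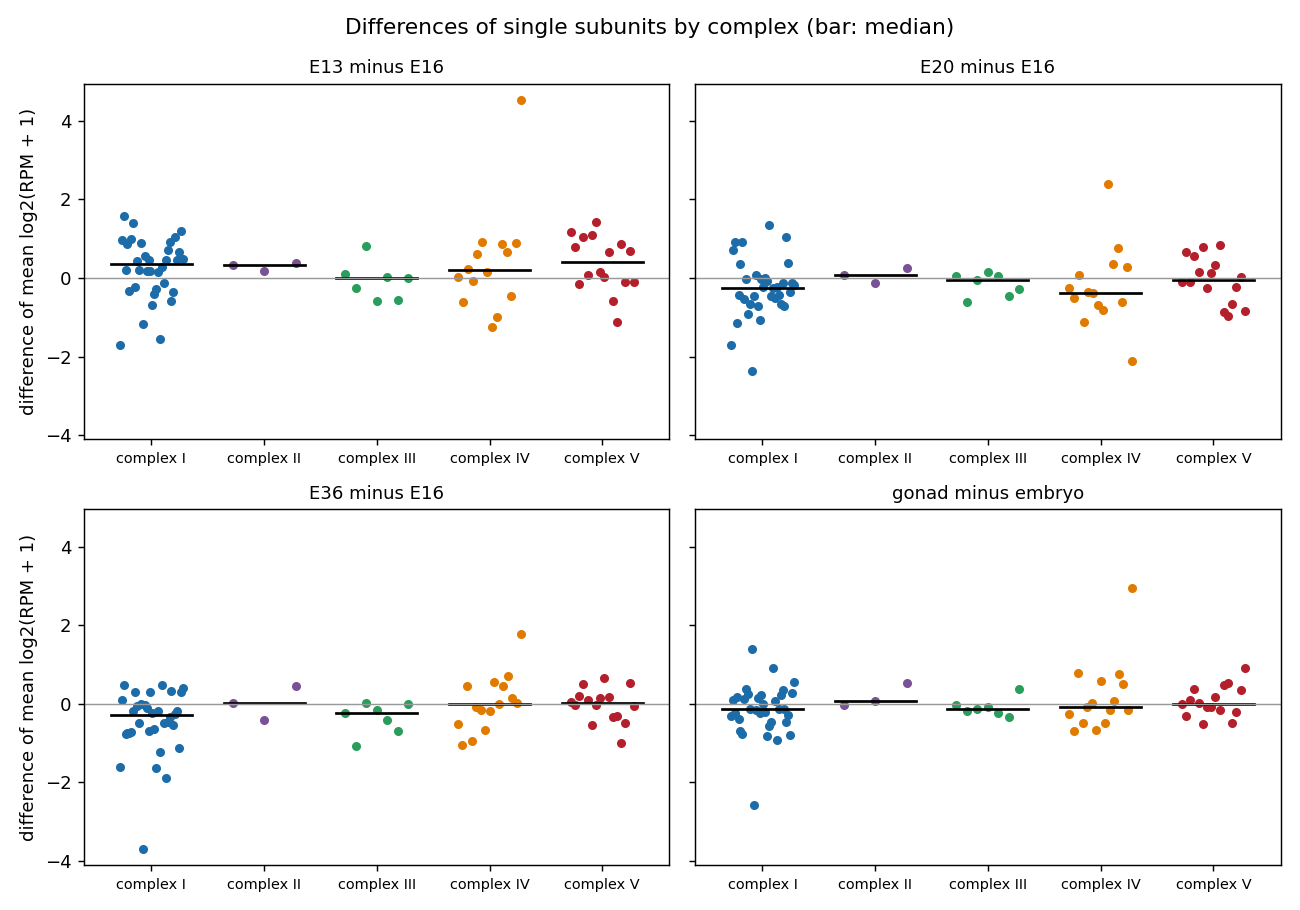
Difference of mean log2(RPM + 1) (y axis) for each measured subunit, grouped by complex (x axis), in the 4 comparisons. Each point is 1 gene and bars are medians, which run from −0.38 (complex IV, E20 against E16) to 0.41 (complex V, E13 against E16).

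The E20 cells, which are mostly mesoderm-like, had lower levels than the mostly germ-cell-like E16 cells for 48 of 74 measured members. The median difference was −0.21, beside −0.12 over all genes, of which 8192 of 14998 were below 0. At least 2-fold lower were 6 members (NDUFA1, NDUFB1, NDUFA12, COX5B, COX8C and COX6B2), beside 21.7% of all genes. At least 2-fold higher were 4 members (NDUFB8, NDUFS7, COX7A1 and ATP5D), beside 24% of all genes. The medians by complex were −0.24 for I, 0.089 for II, −0.048 for III, −0.38 for IV and −0.043 for V. Those of complexes I (−0.37 to −0.12) and IV (−0.50 to −0.30) kept their sign whichever cell was left out, and the other medians did not. Among genes of at least 50 RPM the module's median was −0.18 (60 genes), beside −0.12 for all genes. Whether cluster, stage or code goes with these differences was not tested: only 1 E20 cell is germ-cell-like and only 1 E16 cell mesoderm-like. The mesoderm-like E20 cells are also those with a code of their own.

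NDUFA1, a small X-linked accessory subunit in the membrane, was the member with the greatest lower ratio among those above 200 RPM at E16. It stood at 231 to 879 RPM at E16 (median 592) and at 87.9 to 297 RPM at E20 (median 191), and was 3.22-fold lower at E20. The 231 RPM belonged to E16 cell 8, the mesoderm-like cell, and the other 10 E16 cells had 397 to 879 RPM, above all E20 cells. E20 cell 8, the germ-cell-like cell with the code of E16, had 223 RPM, as low as the rest of its stage. NDUFA1 was also low at the other stages: 316, 89.0 and 159.9 RPM at E13, 160.2 RPM at E14, 135 and 202 RPM at E17, and 68.9 to 349.8 RPM at E36 (median 192). Only the E47 cell (516 RPM) lay within the range of the 10 germ-cell-like E16 cells, and the E55 cells had 290.0 and 340.4 RPM. The other X-linked members did not have this order: COX7B averaged 325 RPM ± 149 at E16 and 525 RPM ± 185 at E20, and NDUFB11 109 RPM ± 47.03 and 125 RPM ± 60.7.

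NDUFB1 was 3.11-fold lower at E20. The E20 cells had 72.9, 19.2, 52.4, 6.77, 0, 118, 120.3 and 32.5 RPM, and the E16 cells 39.1 to 409 RPM (median 146), so the groups overlapped. NDUFB8, of the same membrane arm, went the other way, at 119 RPM ± 59.6 at E20 and 50.3 RPM ± 31.2 at E16 (2.37-fold higher), and its germ-cell-like E20 cell had 65.7 RPM. NDUFS7, which carries the iron-sulfur cluster next to ubiquinone, averaged 46.8 RPM at E20 and 16.7 RPM at E16 (2.80-fold higher). It had 30.3 to 91.4 RPM in the 7 mesoderm-like E20 cells and 0.369 RPM in E20 cell 8.

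In complex IV, COX7A1, the heart and muscle form of COX7A, was 4.99-fold higher at E20, 3.94-fold without E20 cell 7 and 8.68-fold without E16 cell 9. It stood at 23.4, 0, 7.67, 2.26, 5.90, 23.1, 41.0 and 29.1 RPM in the E20 cells, while 8 of 11 E16 cells had 0 reads and the others 12.4, 6.71 and 17.4 RPM. Its level remained far below that of COX7A2, whose share of the pair was 92.1% ± 5.82 at E20. The last of these E20 values, 29.1 RPM, is that of the germ-cell-like cell. COX8C was 13.6-fold lower at E20, 9.13-fold lower without E16 cell 10, and 393-fold lower without E20 cell 5, the only E20 cell above 1 RPM. COX5B, NDUFA12 and ATP5D lay near the 2-fold line, at 2.13-fold lower, 2.04-fold lower and 2.04-fold higher, and each falls short of it once certain single cells are left out, the ratios then reaching 1.96, 1.87 and 1.59.

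**Figure D4:**
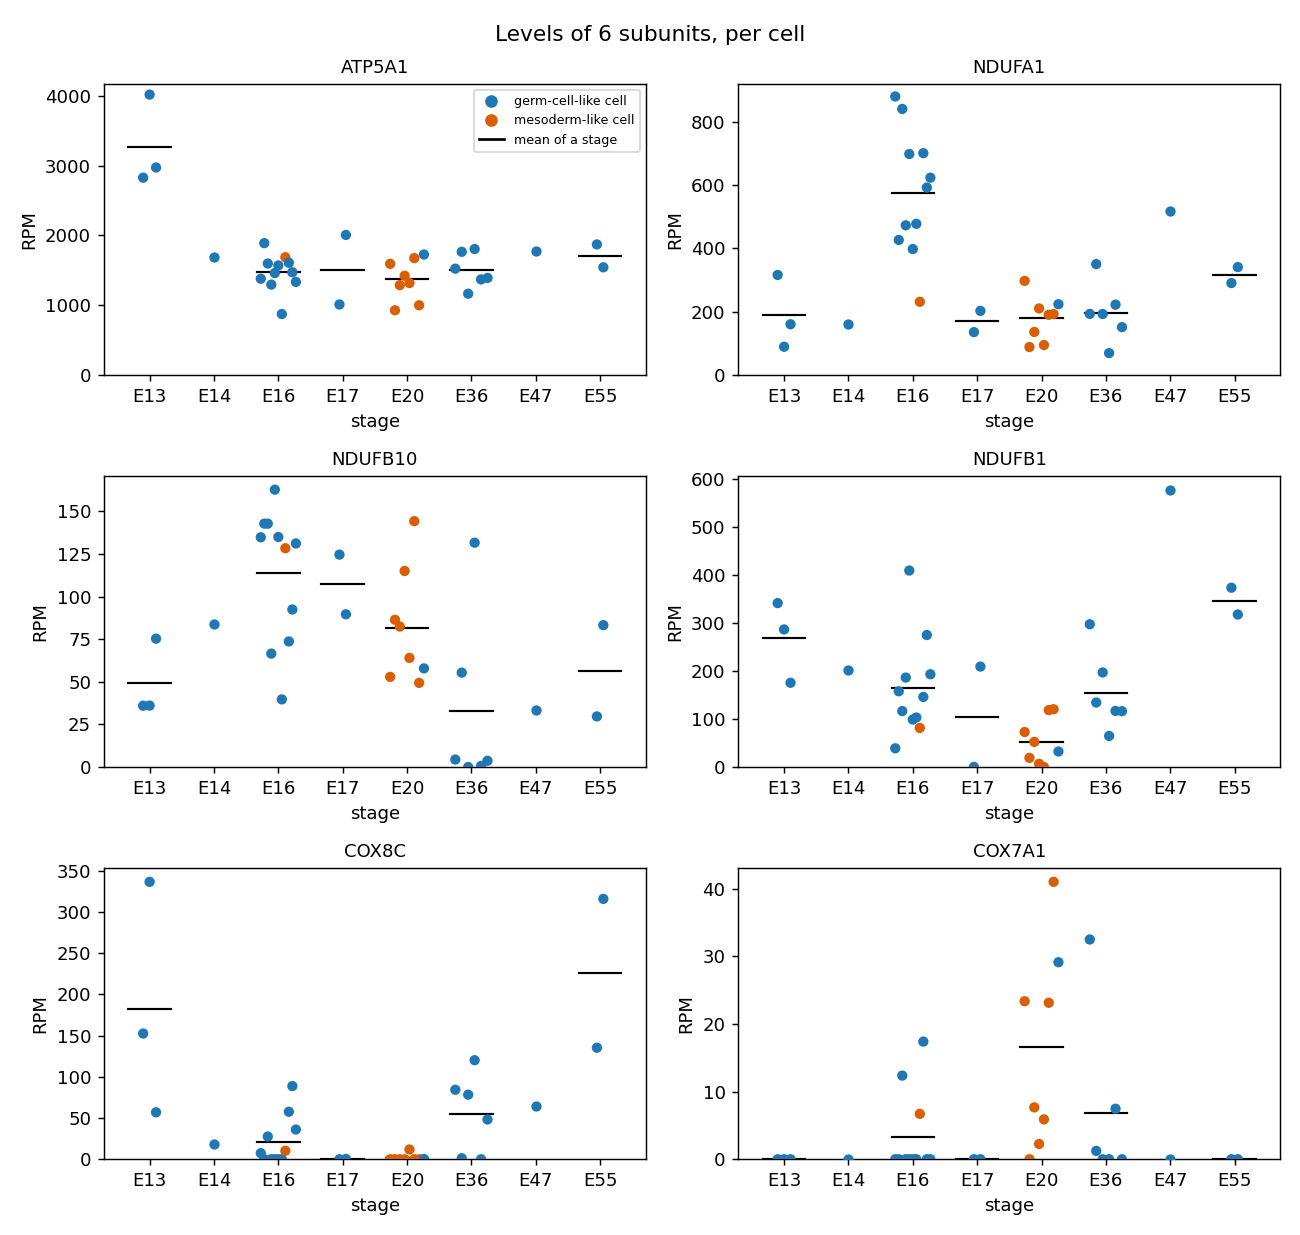
RPM (y axis) of 6 subunits in each cell by stage (x axis). Points are cells coloured by cluster and bars are stage means: ATP5A1 is highest at E13 (2825 to 4016 RPM), NDUFA1 at E16, and COX8C is near 0 at E20.

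Between E36 and E16, the members were lower on balance by less than the genes at large. The median difference was −0.16 over 75 members, beside −0.48 over all genes, and 48 members were below 0, beside 9770 of 14293 genes. At least 2-fold lower at E36 were 5 members (NDUFB10, NDUFA1, UQCRB, COX6B2 and COX4I2), beside 34.7% of all genes. At least 2-fold higher were 3 members (COX8C, COX7B2 and COX7A1), beside 13.6% of all genes. The medians by complex were −0.30 for I, 0.0077 for II, −0.22 for III, −0.016 for IV and 0.010 for V. Those of complexes I (−0.46 to −0.28) and III (−0.42 to −0.09) kept their sign whichever cell was left out, and the other medians did not. Among genes of at least 50 RPM, the module's median was −0.089 (60 genes) and that of all genes −0.24. Ribosomal protein genes took 22.7 to 27.1% of the RPM in the E36 cells and 10.9 to 23.0% in the E16 cells, and their part in the difference was not tested.

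NDUFB10 was 3.48-fold lower at E36 than at E16, 2.90-fold lower without E36 cell 3 and 8.85-fold lower without E36 cell 4. NDUFA1 averaged 196 RPM ± 92.2 against 576 RPM ± 197, 2.94-fold lower, and only E36 cell 2 (349.8 RPM) reached into the E16 range. UQCRB averaged 197 RPM ± 86.3 against 406 RPM ± 140.2, 2.06-fold lower, but under 2-fold in 5 of the cases where 1 cell was left out, down to 1.87-fold without E36 cell 4. COX8C was 2.68-fold higher. COX7A1 was 2.07-fold higher through E36 cell 1 (32.5 RPM) alone, and the ratio was 0.525 without that cell, which is also among the gonad cells with somatic markers. COX7B2 averaged 5.20 RPM at E36 through cell 4, and the other E36 cells had 0 reads. COX4I2 and COX6B2 had 0 reads at E36 and averaged 4.47 and 1.397 RPM at E16.

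Most members were higher at E13 than at E16. The median difference was 0.21 over 74 members, beside −0.20 over all genes, and 50 members were above 0, beside 6299 of 14350 genes. At least 2-fold higher were 9 members (ATP5A1, ATP5G1, ATP5F1, ATP5D, NDUFV2, NDUFS7, NDUFA6, NDUFA11 and COX8C), beside 18.1% of all genes. At least 2-fold lower were 7 members (NDUFA1, NDUFB9, NDUFB10, COX6C, COX7A1, COX4I2 and ATP5J), beside 35.8% of all genes. The medians by complex were 0.36 for I, 0.33 for II, 0.0016 for III, 0.19 for IV and 0.41 for V, and those of V and II were 0.09 and 0.14 without E13 cell 2. The sign turned for complex IV without E13 cell 3 (−0.17) and for complex III without E16 cell 7 (−0.32), while complex I stayed between 0.29 and 0.40. Without E13 cell 2, 2 members were at least 2-fold higher, and without E13 cell 3 there were 14. Over all genes, 2557 to 2808 were at least 2-fold higher when any 1 cell was left out. All genes of at least 50 RPM had a median of 0.081 and the module one of 0.25 (62 genes).

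Within complex I all 7 core subunits had differences above 0 at E13, with a median of 0.70 (0.61 to 0.79 when any 1 cell was left out), beside 0.19 for the 27 accessory subunits. NDUFV2, the core subunit with a cluster near the NADH site, stood at 332, 295 and 195 RPM at E13 and 65.1 to 184 RPM at E16, 2.26-fold higher, and the ratio stayed above 2 whichever cell was left out. NDUFA6, an accessory subunit of the matrix arm, was 2.27-fold higher (288 RPM ± 63.2 against 127 RPM ± 69.3), also without overlap, with 1.99 in the absence of E13 cell 2. NDUFA11 stood at 127, 276 and 72.3 RPM against 19.9 to 102 RPM and was 3.03-fold higher, or 1.91-fold without E13 cell 2. NDUFA1 was 3.06-fold lower, 2.42-fold without E13 cell 2 and 4.63-fold without E13 cell 1. NDUFB10 was 2.31-fold lower. NDUFB9, of the membrane arm, was 2.38-fold lower (40.0 RPM ± 39.1 against 95.1 RPM ± 52.2), but 1.71-fold without E13 cell 1 and 5.26-fold without E13 cell 2. NDUFS7 was 2.13-fold higher, and 1.503-fold without E13 cell 2.

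In complex V the 5 genes of the catalytic head had a median of 0.79, which was 0.12 without E13 cell 2. ATP5A1 averaged 3271 RPM ± 649 at E13 and 1468 RPM ± 261 at E16, 2.23-fold higher without overlap. The ratio was 1.97 without E13 cell 2 and 2.16 after all cells were thinned to 472189 reads. ATP5G1 stood at 263, 758 and 339.9 RPM at E13 and 76.1 to 214 RPM at E16, 2.86-fold higher without overlap, and 1.90-fold without E13 cell 2. ATP5F1, the b subunit of the stalk, stood at 404, 615 and 215 RPM at E13 and 62.1 to 291 RPM at E16 (2.14-fold higher, 1.62-fold without E13 cell 2). ATP5D was 2.87-fold higher at a mean of 25.5 RPM, and the ratio was 0.824 without E13 cell 2. ATP5J, another stalk subunit, stood at 69.9, 46.4 and 125 RPM at E13 and 88.9 to 302 RPM at E16, 2.201-fold lower (1.82-fold without E13 cell 2). ATP5H, the d subunit, stood at 453, 170.2 and 251 RPM at E13 and 42.9 to 255 RPM at E16, with overlap.

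Complex IV divided at E13. COX8C was 8.79-fold higher, and 5.06-fold without E13 cell 2. COX6C, a small membrane subunit, stood at 78.4, 197 and 96.9 RPM at E13 and 66.2 to 567.7 RPM at E16 (median 341), 2.54-fold lower, a ratio of at least 2.15 whichever cell was left out. COX4I2 was 8.72-fold lower at means of 0.513 and 4.47 RPM, and 2.75-fold lower without E16 cell 7. COX7A1 had 0 reads in the 3 E13 cells. In complex III, UQCRC1 stood at 212, 382 and 174 RPM at E13 and 77.3 to 271 RPM at E16 (median 125), whereas UQCRC2 stood at 97.4, 135 and 98.4 RPM and 64.2 to 244 RPM (median 195). The paired core proteins of this complex therefore had differences of opposite sign, with overlap in both.

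Extremes were also sought only among members that met the limits of level and detection for showing per-cell values, given with the processing. The other extreme members of each complex under these limits had overlapping ranges. Within these limits, COX7B was the highest of complex IV at E20 and E36 over E16. COX7B stood at 652, 235 and 603 RPM at E13 and 98.0 to 563 RPM at E16 (median 370.0). At E20 it ran from 177 to 737 RPM (median 554), and at E36 from 232 to 505 RPM (median 427). The E47 cell had 668 RPM and the E55 cells 158 and 433 RPM. COX5B was the lowest of complex IV at the same contrasts, again within these limits. Members such as COX7A1, COX8C and COX4I2 had more extreme differences but did not meet the limits. COX5B stood at 112, 195 and 285 RPM at E13 and 81.9 to 378 RPM at E16 (median 202). At E20 it ran from 45.8 to 176 RPM (median 97.4), and at E36 from 39.6 to 147 RPM (median 122). The E14 cell had 106 RPM, the E17 cells 178 and 207 RPM, the E47 cell 155 RPM and the E55 cells 144 and 57.2 RPM. For COX5B the E20 and E36 medians were thus below that of E16, with overlap of all 3 stages. ATP5J2, the f subunit of the ATP synthase base, stood at 279.5, 374 and 179.9 RPM at E13, 56.6 to 284 RPM at E16 (median 156), 27.0 to 235 RPM at E20 (median 86.5) and 11.2 to 137 RPM at E36 (median 97.4). All E36 cells were thus below the E13 cells for ATP5J2. ATP5G3 ran from 358 to 869 RPM at E36 (median 549.9) and from 250.2 to 667 RPM at E16 (median 333), where the highest value was that of cell 8. UQCRQ, a small complex III subunit, was highest in the E47 cell (436 RPM) and ran from 13.9 to 404 RPM at E16 (median 145) and from 79.3 to 233 RPM at E36 (median 159). UQCRFS1 stayed between 45.8 and 198.4 RPM in all 34 cells.

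The other genes of the pathway did not all follow the subunits. Subunits and partners outside the naming rule (such as NDUFAB1, CYC1 and cytochrome c, CYCS) had medians of 0.22 for gonad over embryo, −0.57 for E20 over E16, −0.90 for E36 over E16 and 0.056 for E13 over E16. The median was 0.048 without E17 cell 1 (gonad), −0.26 without E20 cell 2 (E20) and −0.31 without E13 cell 2 (E13). Of the 7 measured, the 2-fold line was passed downward by 2 at E20 (28.6%) and by 3 at E36 (42.9%), not far from the 21.7% and 34.7% of all genes, and 0 in the other comparisons. None of the 7 was at least 2-fold higher in any of the 4. C14orf2, a small protein of ATP synthase, averaged 110.0 RPM ± 38.3 at E20 and 334 RPM ± 149 at E16 and was 3.04-fold lower. NDUFAB1, the acyl carrier protein that is also a complex I subunit, averaged 149.7 RPM ± 115 at E36 and 316 RPM ± 163 at E16.

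Enzymes of the tricarboxylic acid cycle and pyruvate dehydrogenase, which deliver the electrons, were listed together with PDK1 to PDK4. These are kinases of pyruvate dehydrogenase and deliver none themselves. The joint list had a median of −1.26 at E36 over E16, with 1 of 22 at least 2-fold higher and 9 lower (40.9%, beside 34.7% of all genes). PDK2 and PDK4 are among the 9. The median stayed between −1.35 and −0.95 when any 1 cell was left out. Among those of at least 50 RPM it was −0.42, with 4 of 14 (28.6%) at least 2-fold lower. All genes at that level had a median of −0.24, with 17.01% at least 2-fold lower. Assembly factors, which help build the complexes without staying in them, had a median of −1.07, with 1 of 30 higher and 9 lower, which is 30.0% and no more than the share of all genes. Among the 11 of at least 50 RPM the median was only −0.18, beside −0.24 for all genes at that level, with 5 above 0 and 6 below. At the other contrasts the list of enzymes and kinases had medians of −0.46 (gonad over embryo), −0.13 (E20 over E16) and 0.074 (E13 over E16). The E20 and E13 medians changed sign with single cells left out, between −0.43 and 0.09 and between −0.07 and 0.25. IDH2, the mitochondrial NADP-dependent isocitrate dehydrogenase, averaged 31.5 RPM ± 40.3 at E36 and 111 RPM ± 57.0 at E16, 3.53-fold lower. It was 2.94-fold lower without E36 cell 2 and 6.47-fold lower without E36 cell 1. PDHA1, the alpha subunit of pyruvate dehydrogenase, had 0, 2.58 and 1.54 RPM at E13 and 39.2 to 174 RPM at E16. FH, fumarate hydratase, went the other way at E13, at 296, 253 and 86.1 RPM against a mean of 67.9 RPM at E16.

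Proteins of the mitochondrial ribosome, which translates the subunits encoded in the organelle, had a median of 0.51 at E13 over E16 (0.32 to 0.56 when any 1 cell was left out), beside −0.20 over all genes. Of 68 measured, 13 were at least 2-fold higher (19.1%, near the 18.1% of all genes) and 3 lower (4.41%, beside 35.8%). MRPL46 stood at 239, 242 and 163 RPM at E13 and 0.845 to 149.6 RPM at E16, 2.88-fold higher without overlap. MRPS28 stood at 216, 345 and 219.9 RPM and averaged 80.4 RPM ± 43.7 at E16, 3.24-fold higher. Against E16, E20 and E36 gave medians of −0.19 and −0.17 for this list. The regulators of mitochondrial biogenesis had a median of −0.40 for E36 over E16 and of 0.23 for gonad over embryo, and neither was stable. The first was −0.10 without E36 cell 2 and the second −0.04 without the E47 cell, and among the 5 regulators of at least 50 RPM they were 0.48 and 0.76. At E13 over E16 the regulators had a median of −0.20. Of 12 measured, 3 were at least 2-fold higher and 3 lower (25% each, beside 18.1% and 35.8% of all genes). NRF1, a transcription factor known to act on many subunit genes, was among the lower ones. It averaged 0.942 RPM ± 0.826 at E13 and 12.4 RPM ± 12.3 at E16, under 15 RPM at both stages. The higher ones were POLG (4.77-fold), PPARGC1B (2.24-fold) and POLRMT (2.07-fold). Carriers, porins and uncouplers had a median of −0.0041 at E20 over E16. Of 8 measured, 2 were at least 2-fold higher (25%) and 1 lower (12.5%), beside 24% and 21.7% of all genes. The lower one, the ADP/ATP carrier SLC25A5, averaged 792 RPM ± 229.7 at E16 and 374 RPM ± 87.5 at E20 (2.12-fold, 1.98-fold without E16 cell 3). The higher ones were UCP2 (4.66-fold) and VDAC1 (2.49-fold). UCP2 had 0 reads in all 6 E36 cells.

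The subunits varied less between cells than most genes of at least 50 RPM, but not than those of at least 200 RPM. Of the 60 members with a mean of at least 50 RPM, 56 had a coefficient of variation (SD over mean) below the median of all 3799 genes at that level. Their median was 0.492, beside 0.666. At 200 RPM and above the medians were 0.420 for 29 members beside 0.427 for 796 genes, with 17 members below the median. By complex the medians at 50 RPM were 0.544 for I, 0.608 for II, 0.454 for III, 0.491 for IV and 0.423 for V. ATP5G2 varied least, at 0.190, from 500.2 RPM in E16 cell 8 to 1301 RPM in E16 cell 6. The widest spread was that of NDUFB1 (0.793), then ATP5G1 (0.691) and NDUFA1 (0.677).

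**Figure D5:**
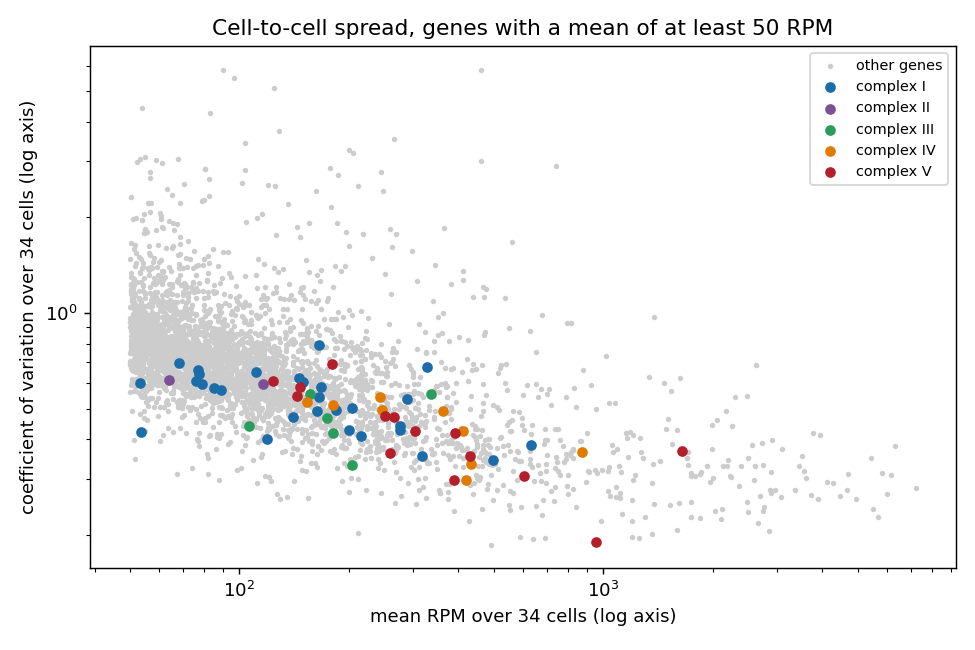
Coefficient of variation over the 34 cells (y axis, log axis) against mean RPM (x axis, log axis) for genes of at least 50 RPM. Coloured points are the 60 subunits and grey points all other genes: most subunits lie under the all-gene median of 0.666, from 0.190 for ATP5G2 to 0.793 for NDUFB1.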

How the data were processed

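The authors deposited 1 table of log2 values for 34 cells, and per the submitters' processing notes cutadapt 1.3, TopHat 1.4.1 and Cufflinks 2.2.0 were used. The build is not given in the sources used here, nor is the annotation. The deposited log2 values are read as log2(RPM + 1), because each back-transformed column sums to 992085 to 995711. Low values lay on whole multiples of 1 read for 99.7 to 100% of genes per cell (tolerance 0.1 read), which gave the depth. Back-transformation, medians and ratios were computed in Python 3.11.15 with pandas 2.3.3, NumPy 2.4.6 and SciPy 1.17.1, and the scripts were tested on simulated data. Genes count as measured at a mean of 1 RPM in either group, and as called at a 2-fold ratio of mean RPM. With 1 sample per stage, no test, p-value or standard error is given. A count of 0 allows 3 reads. Cells were clustered without the members (Ward linkage, 10 principal components, 2 clusters).

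Per-cell values were shown for the highest member of each complex and for the members with the highest and lowest difference per comparison and complex (at least 50 RPM on average in the higher group, and 15 RPM in 80% of its cells). Other named members are called ones, paralogs, core subunits or related genes. The members and lists were chosen with earlier results of these data known. NDUFA13, NDUFS6, UQCR10, ATP5L2 and UQCRHL were not analysed here, and no sequences were used here.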

Additional observations from a re-analysis of the deposited data

Results flagged for a closer look

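In groups of 4 to 10 cells, 64 sets of values were screened for a cell far from its neighbours relative to the range of its stage, and 4 had such a cell; chance alone gives about 1 in 20. All 4 lie at E20. The mean log2(RPM + 1) of the module was 6.70 in E20 cell 1, and the nearest E20 cell had 6.39. ATP5G1 stood at 310.2 RPM in E20 cell 8, with 165 RPM in the nearest cell, and ATP5J at 299 RPM in E20 cell 2, with 141 RPM in the nearest. COX8C stood at 11.8 RPM in E20 cell 5, with 0.369 RPM in the nearest.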

How the results depend on the processing

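The median difference of the module lay between 0.17 and 0.33 for E13 over E16, −0.26 and −0.12 for E20 over E16, −0.25 and −0.07 for E36 over E16, and −0.14 and −0.01 for gonad over embryo when any 1 cell was left out. It changed sign in small subsets, to 0.02 for E20 over E16 within the code shared with E20 cell 8 and to 0.05 for gonad over embryo within the code shared with E17. The ratios of ATP5D (E13 over E16) and COX7A1 (E36 over E16) turned below 1 without a single cell, as given above. Among germ-cell-like cells alone, and within the code shared by E16 and E20 cell 8, 20 members were at least 2-fold lower at E20, against 6 with all cells; both settings leave 1 E20 cell. Of all measured genes, 7713 of 13746 were at least 2-fold lower in the first of these settings, a larger share than 20 of 74. Without E16 cell 8 and E20 cell 8, an alternative chosen after seeing the data, 4 members were higher and 9 lower. The share of all genes is not given for this setting, so these counts do not set the members apart from other genes. Within the code shared by E17 and the gonad, which leaves 2 embryo cells, 10 members were higher and 5 lower in the gonad, with medians of 1.09 for complex II and 0.51 for complex IV. E17 cell 1, 1 of these 2, had the fewest genes at 15 RPM of all cells (5102). With genes measured only from 15 RPM, 1 member was lower in the gonad, 1 was higher and 3 were lower at E36 than at E16, and complex IV had a median of 0.64 at E13 over E16. Neither here nor for the code of E17 and the gonad is the share of all genes given. The counts of these settings therefore do not set the members apart from other genes. With size factors in place of RPM, NDUFA12 (1.89-fold, E20) and UQCRB (1.97-fold, E36) no longer reached 2-fold. The number of members at least 2-fold higher at E13 ran from 2 to 14 when 1 cell was left out, beside 2557 to 2808 over all genes. Without ribosomal protein genes in the total, the module's share was 2.50% at E13, 2.08% at E14, 2.06% at E16, 2.04% at E17, 1.82% at E20, 2.09% at E36, 2.39% at E47 and 2.18% at E55, so that E36 passed E16. No paired analysis was possible because the replicate numbers only name cells in accession order and no label ties cells of different stages together. At the depth of the E13 cells, members of a few RPM rest on few reads, and such differences are not firm.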
